A study of Mus musculus with 6 samples.

Results

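The genes described here encode the cell-surface receptors and co-receptors through which bone morphogenetic proteins (BMPs), activins and TGF-beta signal. They were taken by symbol from the GENCODE M21 annotation of mm10, and all 10 listed genes had a row among the 21785 genes of the deposited matrix. They comprise 4 type I receptors (Acvrl1, Acvr1, Bmpr1a and Tgfbr1), 4 type II receptors (Bmpr2, Acvr2a, Acvr2b and Tgfbr2) and 2 co-receptors (Eng and Tgfbr3). All 10 passed the filter on low values.

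RNA was sequenced from cultures of pulmonary arterial smooth muscle cells (PASMCs), which line lung arteries beneath the endothelium and contract, grown from C57BL/6 mouse lung tissue held back by iron particles in the vessels. The 3 BMP-stimulated samples received BMP9 (1 ng/mL) together with BMP10 (5 ng/mL) for 6 h, and the 3 control samples received neither. Every culture had spent 48 h in medium without supplement beforehand, and no genetic modification is named for either group. The labels do not say whether replicates came from separate animals or cultures, and p-values therefore reflect only how these samples vary, a spread that may be technical.

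Ligands of this family bind a complex of type I and type II receptors, both of which are serine/threonine kinases. The type II kinase phosphorylates the type I receptor, and the type I receptor in turn phosphorylates SMAD proteins that move to the nucleus. BMP9 and BMP10 bind the type I receptor ALK1, the product of Acvrl1, with high affinity, together with BMPR2 or an activin type II receptor. Endoglin, the product of Eng, presents these ligands, and betaglycan, the product of Tgfbr3, presents TGF-beta and inhibin. ACVRL1 and ENG are best known from endothelial cells, and inherited loss of BMPR2 in humans predisposes to pulmonary arterial hypertension.

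Values are normalized read counts, whose library totals ran between 27295973 and 31903795. The scale factors, estimated roughly from steps between low values, ran from 0.584 to 1.32, and the lowest, for BMP-stimulated replicate 3, marks the library with the most reads. All 12 smooth muscle markers were above 0 in every library and summed to 147783 to 268199 normalized counts in stimulated and 77444 to 99658 in control samples. By limma 5 of them rose and 7 did not pass, where 8.61% of all genes rose. Acta2 rose (69094 to 153164 and 23470 to 37627), while Des (log2 change -0.43) and Synpo2 (-0.12) were not called. Without both replicate 2 libraries 3 of the 12 rose, beside 6.97% of all genes. Markers of other cell types were also above 0 in every library. The 11 macrophage markers summed to 143918 to 214875 in stimulated and 96545 to 166100 in control samples, the 12 fibroblast markers to 230884 to 440435 and 294998 to 416635, and the 10 pericyte markers to 39220 to 45239 and 27072 to 37634. The part of these cells in the receptor values was not tested. In bulk RNA, fewer cells of a type and less RNA per cell cannot be told apart. Replicate 2 stood apart: each of the 22 endothelial and 6 mesothelial markers was highest there in both groups. So were 8 of 10 epithelial, 7 of 10 pericyte, 7 of 12 fibroblast, 4 of 12 smooth muscle and 2 of 11 macrophage markers. The share of all genes highest there was not counted. All 10 genes on a list of direct BMP response genes rose (median log2 change 2.33), beside 8.61% of all genes. Among them was Id1 (1848 to 2736 in stimulated and 436 to 691 in control samples). Without both replicate 2 libraries 9 of the 10 rose, beside 6.97% of all genes. The list was chosen with earlier results of these data known, so it is no independent check of the treatment.

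Among the receptors, 5 rose, 1 fell and 4 did not pass the test, at an adjusted p under 0.05 by limma with Benjamini-Hochberg adjustment over all 21743 genes tested. Over all genes, 13.4% changed, 8.61% upward and 4.75% downward. Bmpr2 and Tgfbr1 rose by over 3-fold, Acvr1 and Eng by over 2-fold and Bmpr1a by 1.38-fold, whereas Tgfbr3 fell to 0.233 of its control level. Acvrl1 and Tgfbr2 stood within 10% of their control means. The median log2 change of the 10 genes was 0.31, beside -0.03 for all genes tested. Counted by separation of the groups, 5 receptors lay higher and 2 lower in every stimulated library than in any control library, where 17.8% and 15.4% of all genes did so (33.2% in either direction). With the replicate number as a block 5 rose and 2 fell, beside 26.8% of all genes called (14.9% upward and 12% downward). With equal library totals, under which the median of all genes was -0.20 and 33.4% of all calls were rises, against 64.5% as deposited, 3 receptors rose and 2 fell, beside 5.22% and 10.4% of all genes. Without both replicate 2 libraries 4 rose and 1 fell, beside 6.97% and 4.13% of all genes.

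**Figure D1:**
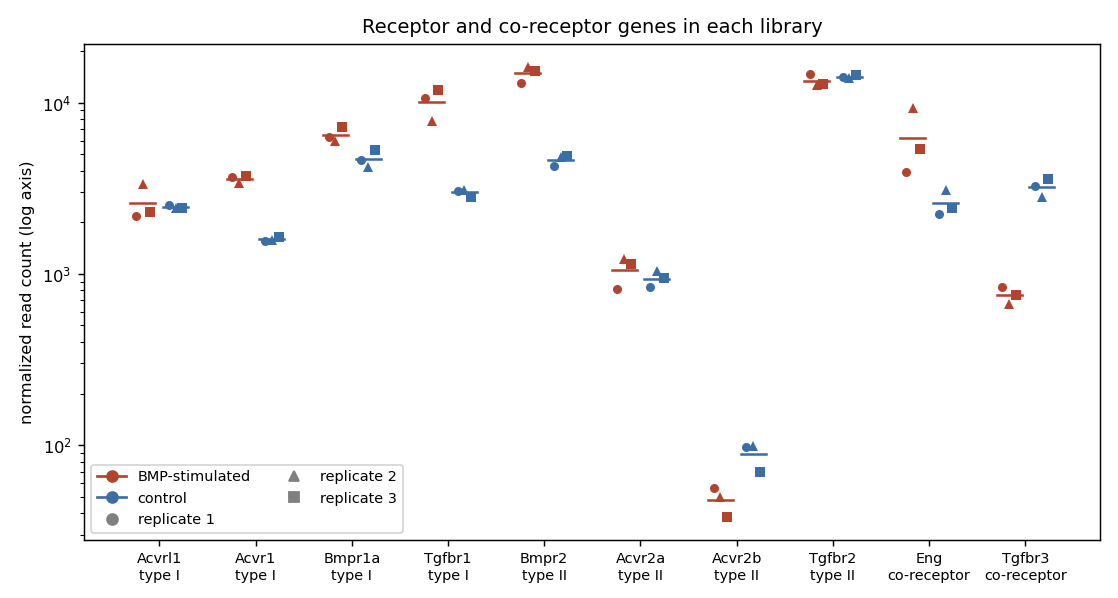
Normalized read count (log axis) of each receptor gene in every library, BMP-stimulated in red and control in blue, with 1 symbol per replicate number and a line at each group mean. Bmpr2, Tgfbr1, Acvr1, Bmpr1a and Eng lay higher in every stimulated library, Tgfbr3 and Acvr2b lay lower, and Acvrl1, Acvr2a and Tgfbr2 overlapped.

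Upstream sequence of Tgfbr1, Eng and Bmpr2 is shown. They are among the receptors that rose, and each holds a short motif of the kind SMAD complexes bind. Bmpr1a, which also rose and holds such a motif, is not printed. Whether a motif bears on a change was not tested. RefSeq start sites of GRCm38.p6 gave a 250-base upstream window for 8 of the 10 genes, 9 windows in all; Acvrl1 and Tgfbr3 were not matched. The motifs searched were GGCGCC, a GC-rich element of BMP-responsive SMADs that reads the same on both strands, and CAGAC, the SMAD-binding box, on either strand (GTCTG on the other); these do not overlap each other. GGCGCC was found in the windows of Bmpr2, Tgfbr1 and Bmpr1a and in 9.59% of 32851 windows of all genes, and CAGAC in those of Eng, Acvr2a, Acvr2b, Tgfbr2 and a downstream start of Tgfbr1 and in 42.2% of all windows. The window of Acvr1, which also rose, held neither, but all its 250 bases lay inside annotated exons of Acvr1. So did 141 bases of the Bmpr1a window and 60 of the Acvr2b window, in exons of their own genes. Acvr2a, Acvr2b and Tgfbr2, whose windows hold CAGAC, did not pass the limma test. A match is a description of the letters and not a binding site. The windows of Tgfbr1 (chr4:47352972-47353221, plus strand) and Eng (chr2:32646345-32646594, plus strand) are printed whole, and for Bmpr2, whose window lies within an annotated first exon, 30 bases around the match (chr1:59764162-59764191, plus strand), with matches in capitals.
Tgfbr1: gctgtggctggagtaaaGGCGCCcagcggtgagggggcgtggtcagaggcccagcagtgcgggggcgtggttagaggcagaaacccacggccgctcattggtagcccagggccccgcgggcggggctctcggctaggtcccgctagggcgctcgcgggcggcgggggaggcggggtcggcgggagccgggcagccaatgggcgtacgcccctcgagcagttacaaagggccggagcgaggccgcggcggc
Eng: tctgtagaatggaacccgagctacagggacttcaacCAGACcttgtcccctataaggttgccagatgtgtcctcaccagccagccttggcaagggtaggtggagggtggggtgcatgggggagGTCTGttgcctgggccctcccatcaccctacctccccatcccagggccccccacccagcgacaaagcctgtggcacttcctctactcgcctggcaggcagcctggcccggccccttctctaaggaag
Bmpr2: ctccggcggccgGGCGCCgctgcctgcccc

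The type I receptors diverged. Acvrl1 (chromosome 15, 101128522 to 101145336), which encodes the high-affinity receptor for the added ligands, had 2172, 3355 and 2301 normalized counts in stimulated replicates 1, 2 and 3. Controls had 2529, 2440 and 2418. Replicate 2 was the high library among stimulated samples, the other stimulated values lay just below all controls, and the groups overlapped. The log2 change was 0.06 ± 0.16 (SE), with a limma adjusted p of 0.861 and a 95% interval of 0.796-fold to 1.36-fold. Between same-numbered libraries the difference was -0.22, 0.46 and -0.07 on the log2 scale in pairs 1, 2 and 3, so its direction was not shared. Rises of the size seen for Bmpr2 or Acvr1 lie outside that interval.

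Acvr1 (chromosome 2, 58388644 to 58567157) encodes ALK2, a type I receptor for BMP6 and BMP7 that also answers BMP9. It had 3666, 3397 and 3723 normalized counts in stimulated samples and 1565, 1581 and 1644 in controls. The values were tight within each group and lay far apart between them. The mean was 3595 ± 174 after stimulation and 1597 ± 41.8 in controls (SD, n = 3 each), 2.25-fold higher, with a log2 change of 1.17 ± 0.08 (SE, limma adjusted p = 0.00048).

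Bmpr1a (chromosome 14, 34410734 to 34503341) encodes ALK3, the main type I receptor for BMP2 and BMP4. Its normalized counts were 6302, 5974 and 7169 in stimulated libraries and 4645, 4225 and 5265 in control libraries. Every stimulated library was higher, but the gap between the groups was narrow. The log2 change was 0.46 ± 0.11 (SE), and limma called it at an adjusted p of 0.0373. The difference was nearly equal in the 3 same-numbered pairs, at 0.44, 0.50 and 0.45, and with the replicate number as a block the adjusted p was 0.00229. Without the block the call depended on every library: it was lost by limma when any single sample was left out (adjusted p between 0.0506 and 0.138), without both replicate 2 libraries (0.0693), with equal library totals (0.108), with limma-voom (0.1075) and with upper-quartile factors (0.0816).

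Tgfbr1 (chromosome 4, 47353222 to 47414931) encodes ALK5, the type I receptor for TGF-beta, which is not a receptor for the added ligands. Stimulated samples had 10560, 7838 and 11849 normalized counts, against 3062, 3093 and 2817 in controls. The lowest stimulated library, replicate 2, still lay far above the highest control. The mean was 10082 ± 2048 after stimulation and 2991 ± 151 in controls (SD, n = 3 each). Tgfbr1 rose 3.37-fold, with the largest log2 change among the receptors that rose, 1.73 ± 0.15 (SE, limma adjusted p = 0.00122). Its interval, 2.59-fold to 4.26-fold, enclosed that of Bmpr2, 2.69-fold to 3.805-fold.

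**Figure D2:**
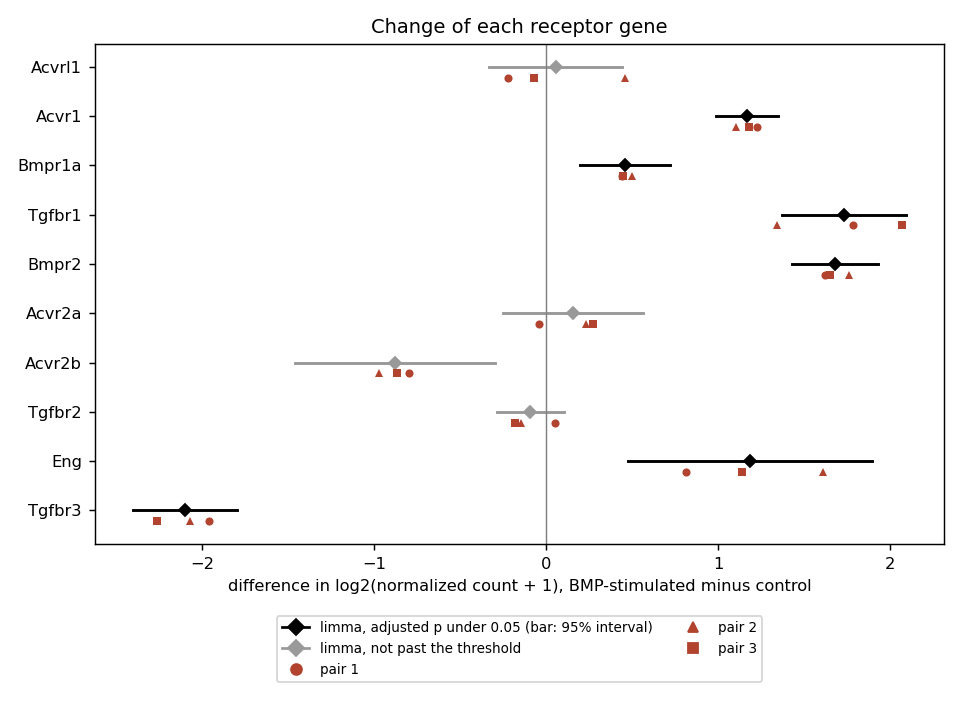
Change of each receptor gene as the difference in log2(normalized count + 1), BMP-stimulated minus control, with a diamond for the limma estimate, a bar for its 95% interval and small red symbols for the 3 same-numbered pairs. Bmpr2, Tgfbr1, Acvr1, Bmpr1a and Eng lie above 0 in all pairs, Tgfbr3 and Acvr2b below 0 in all pairs, and the pairs of Acvrl1, Acvr2a and Tgfbr2 fall on both sides.

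Among type II receptors Bmpr2 rose, and no other passed the test. Bmpr2 (chromosome 1, 59763400 to 59879014) encodes the type II receptor dedicated to BMPs, with a long cytoplasmic tail that other family receptors lack. It had 13061, 16230 and 15289 normalized counts in stimulated samples and 4244, 4788 and 4865 in controls. The groups lay far apart, and neither held a library that stood out. The mean was 14860 ± 1627 after stimulation and 4632 ± 338.5 in controls (SD, n = 3 each), a 3.21-fold rise, and the log2 change was 1.68 ± 0.11 (SE, limma adjusted p = 0.000469). All 3 same-numbered pairs gave nearly the same rise, at 1.62, 1.76 and 1.65.

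Acvr2a (chromosome 2, 48814109 to 48903269) encodes an activin receptor that also serves BMPs. It had 811, 1219 and 1138 normalized counts in stimulated libraries and 833, 1036 and 940 in control libraries, and the groups overlapped. The log2 change was 0.16 ± 0.17 (SE, limma adjusted p = 0.603), with a 95% interval of 0.842-fold to 1.48-fold. Its paralog Acvr2b (chromosome 9, 119402118 to 119434995) was the lowest of the receptors, with 56, 50 and 38 counts in stimulated samples and 98, 99 and 70 in controls. Every stimulated library was lower, but the log2 change of -0.88 ± 0.25 (SE) did not pass limma (adjusted p = 0.05955). The same difference passed with the replicate block (limma adjusted p = 0.0140). Larger differences passed with equal library totals (-1.05, 0.0359), limma-voom (-1.06, 0.0369) and upper-quartile factors (-0.96, 0.0485). Acvr2b did not pass limma when any single library was left out (adjusted p between 0.0737 and 0.191).

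Tgfbr2 (chromosome 9, 116084293 to 116175360) encodes the type II receptor for TGF-beta, the partner of the Tgfbr1 product. It had 14582, 12648 and 12768 normalized counts in stimulated samples and 14048, 13971 and 14461 in controls. The groups overlapped, with stimulated replicate 1 the highest library of all. The log2 change was -0.09 ± 0.08 (SE, limma adjusted p = 0.527), and the 95% interval ran from 0.822-fold to 1.07-fold. It was called, at -0.26, only with equal library totals and the replicate block together (limma adjusted p = 0.0343).

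The co-receptors went in opposite directions. Tgfbr3 (chromosome 5, 107106570 to 107289629) had 840, 668 and 748 normalized counts in stimulated libraries and 3263, 2804 and 3595 in control libraries. The highest stimulated value lay far below the lowest control. The mean was 752 ± 86.1 after stimulation and 3221 ± 397 in controls (SD, n = 3 each), and Tgfbr3 fell by 2.10 on the log2 scale (SE 0.13, limma adjusted p = 0.000413). This was the largest change in either direction among the 10 genes, and it was called under each of the 18 alternatives run.

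Eng (chromosome 2, 32646595 to 32682669) had 3936, 9349 and 5373 normalized counts in stimulated replicates 1, 2 and 3. Control replicates 1, 2 and 3 had 2241, 3067 and 2438. Every stimulated library was above every control, and replicate 2 was the highest of its group in both. The mean was 6219 ± 2804 after stimulation and 2582 ± 431 in controls (SD, n = 3 each), 2.41-fold higher, and the log2 change was 1.19 ± 0.30 (SE, limma adjusted p = 0.0439). Same-numbered pairs differed by 0.81, 1.61 and 1.14, and with the replicate block the adjusted p was 0.00178. Without the block the call was lost by limma with equal library totals (adjusted p = 0.0609), with limma-voom (0.0638) and without stimulated replicate 3 (0.129) or control replicate 1 (0.140), 2 (0.0616) or 3 (0.136).

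Endothelial markers followed the replicate number in the same order as Eng in both groups. The 22 markers summed to 14859, 58196 and 24077 normalized counts in stimulated replicates 1, 2 and 3, and to 16303, 58009 and 18800 in control replicates 1, 2 and 3. The order was not particular to them: the fibroblast and epithelial marker sums had it in both groups too. For the endothelial markers replicate 2 was a median of 3.53-fold over the other replicates in stimulated samples and 3.63-fold in controls. Of the 22 markers, Flt1 was the 1 called by limma and rose (median log2 change of all 22, -0.24), where 13.4% of all genes were called. With the replicate block 4 markers rose and 7 fell, beside 14.9% and 12% of all genes. The markers with the highest counts, Cdh5 and Pecam1, were called in neither fit. Eng in replicate 2 was 2.01-fold over the other replicates in stimulated samples and 1.31-fold in controls, and Acvrl1 was 1.5-fold and 0.987-fold. Smooth muscle markers had median ratios of 1.59 and 0.912, fibroblast markers 1.56 and 1.27 and pericyte markers 1.7 and 2.82. Those of epithelial markers were 2.45 and 4.06, of mesothelial markers 6.975 and 4.28 and of macrophage markers 0.721 and 1.25. For the remaining 8 receptors this ratio lay between 0.70 and 1.25 in stimulated samples, and in controls it was lowest for Tgfbr3 (0.818) and highest for Acvr2b. Without both replicate 2 libraries Eng rose by 0.98 on the log2 scale (limma adjusted p = 0.0383). The endothelial markers were above 0 in those libraries too. The part of these cells in the level of Eng within a library was not tested.

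**Figure D3:**
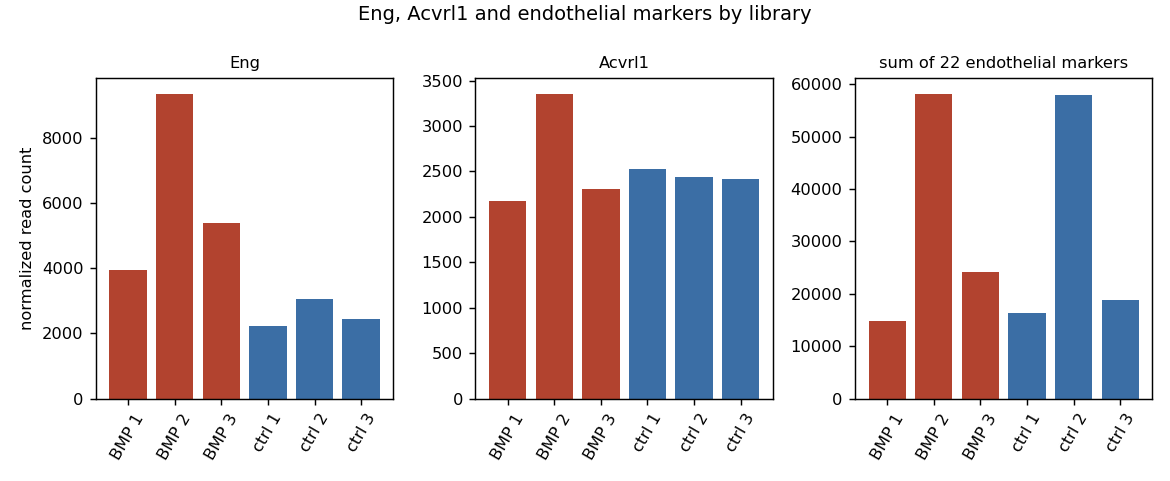
Normalized read count of Eng, of Acvrl1 and of the sum of 22 endothelial markers in each library, with BMP-stimulated libraries in red and control libraries in blue. The marker sum is highest in replicate 2 of both groups (58196 and 58009), Eng is higher in all stimulated libraries, and Acvrl1 is raised only in stimulated replicate 2 (3355).

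Levels were compared between receptors after division by the length of all annotated exons, in normalized counts per kb. After stimulation Tgfbr2 (1629 ± 132), Tgfbr1 (1543 ± 313) and Eng (1536 ± 693) led, with overlapping ranges (SD, n = 3). Eng also overlapped the next gene, Bmpr1a (1021 ± 97.2). Bmpr2 (826 ± 90.5), Acvr1 (745 ± 36.1) and Acvrl1 (612 ± 152) followed, each overlapping its neighbour. Acvr2a (186 ± 38), Tgfbr3 (115 ± 13.2) and Acvr2b (12.2 ± 2.33) closed the order with separate ranges.

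In controls the order was another. Tgfbr2 stood alone at the top with 1730 ± 32.2 per kb (SD, n = 3), far above the next gene, Bmpr1a (742 ± 82.4). Bmpr1a, Eng (638 ± 107) and Acvrl1 (577 ± 13.8) overlapped as neighbours, as did Tgfbr3 (492 ± 60.7) and Tgfbr1 (458 ± 23.1). Acvr1 (331 ± 8.65), Bmpr2 (258 ± 18.8), Acvr2a (165 ± 17.9) and Acvr2b (22.7 ± 4.19) followed with separate ranges. Of 9 neighbouring pairs, 4 had separate ranges in stimulated samples and 6 in controls. Bmpr2 stood at rank 5 in stimulated samples, against rank 8 in controls, and Tgfbr3 at rank 9, against rank 5. Among 15852 protein-coding genes ordered per kb, Bmpr2 stood above 88.8% of them in stimulated samples and 68.7% in controls, Tgfbr1 above 94.4% and 81.5%, and Tgfbr3 above 48.5% and 82.8%. Tgfbr2 stood above 94.7% and 95.6%. The order depended on the assumed length. For Bmpr2, annotated exons cover 17983 bases while its longest transcript has 12899: by the longest transcript it ranked 4 and 8, and by coding length 3 and 5, in stimulated and control samples. Eng, at rank 3 in both groups by exons, ranked 1 and 3 by the longest transcript and 5 and 6 by coding length. Tgfbr1, at ranks 2 and 6 by exons, ranked 2 and 3 by coding length.

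**Figure D4:**
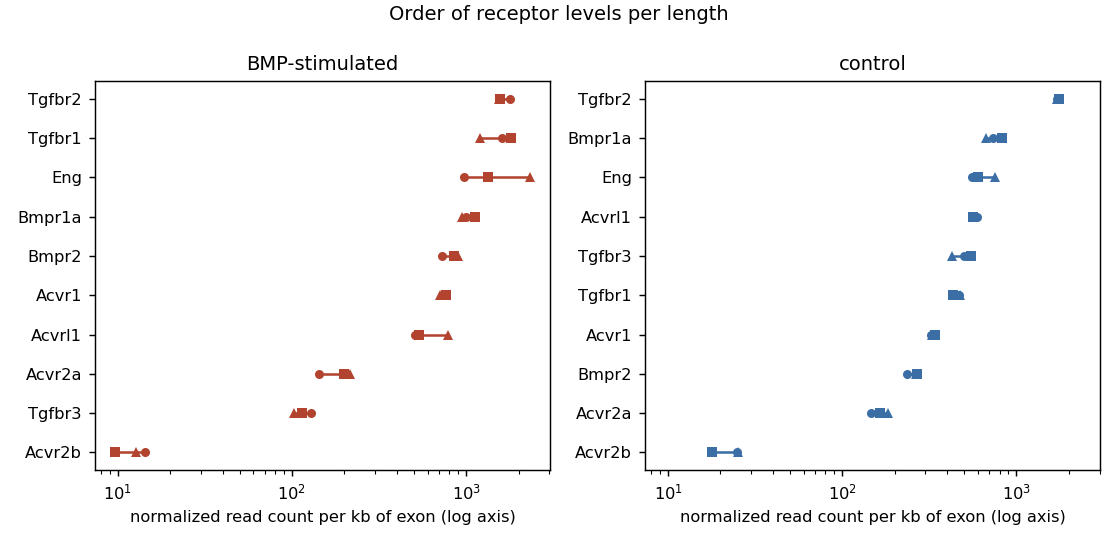
Receptor genes ordered by mean normalized read count per kb of exon (log axis), BMP-stimulated samples on the left and controls on the right, with each library as a symbol (circle, triangle and square for replicates 1, 2 and 3) and a line over the range. Tgfbr2 leads in both panels, Bmpr2 and Tgfbr1 stand higher in the order after stimulation, Tgfbr3 stands lower, and Acvr2b is last in both.

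Shares within a receptor class do not depend on how libraries were scaled to each other, and they are given without a test. Among the type II receptors that serve BMPs and activins, Bmpr2 made up 82.2%, 79.9% and 80.2% of the summed level per kb in stimulated replicates 1, 2 and 3. It made up 57.9%, 56.2% and 59.6% in controls. The groups were separate, with little spread in either. Acvr2a correspondingly held 18 ± 1.61% after stimulation and 37 ± 1.33% in controls, and Acvr2b held 1.22 ± 0.36% and 5.12 ± 1.11% (SD, n = 3 each).

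Within the type I BMP receptors the share of Acvrl1 was 22.5%, 32.4% and 22.1% in stimulated replicates and 36%, 36.6% and 32.7% in controls. The groups did not overlap, but stimulated replicate 2 came close to control replicate 3. Acvr1 held 31.4 ± 2.33% after stimulation and 20.1 ± 0.75% in controls, while Bmpr1a held 43 ± 3.88% and 44.9 ± 2.65% and overlapped between the groups (SD, n = 3 each). Eng made up 88.3%, 95.8% and 92.1% of the co-receptor sum in stimulated libraries, against 52.6%, 63.9% and 52.3% in control libraries.

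Summed levels were also read by class. The type I BMP receptors (Acvrl1, Acvr1 and Bmpr1a) summed to 2377 ± 101 per kb after stimulation and 1650 ± 85.8 in controls, and the type II receptors for BMPs and activins (Bmpr2, Acvr2a and Acvr2b, without Tgfbr2) to 1024 ± 127 and 445 ± 34 (SD, n = 3 each). Co-receptors summed to 1651 ± 680 and 1130 ± 69.5, and here the groups overlapped. The ratio of Tgfbr2 to Tgfbr1 per kb was 1.10, 1.29 and 0.86 in stimulated replicates, and it averaged 3.79 ± 0.27 in controls (SD, n = 3). Bmpr2 stood above Acvrl1 in each stimulated library (ratios 1.43, 1.15 and 1.58) and below it in each control library (0.398, 0.465 and 0.477).

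**Figure D5:**
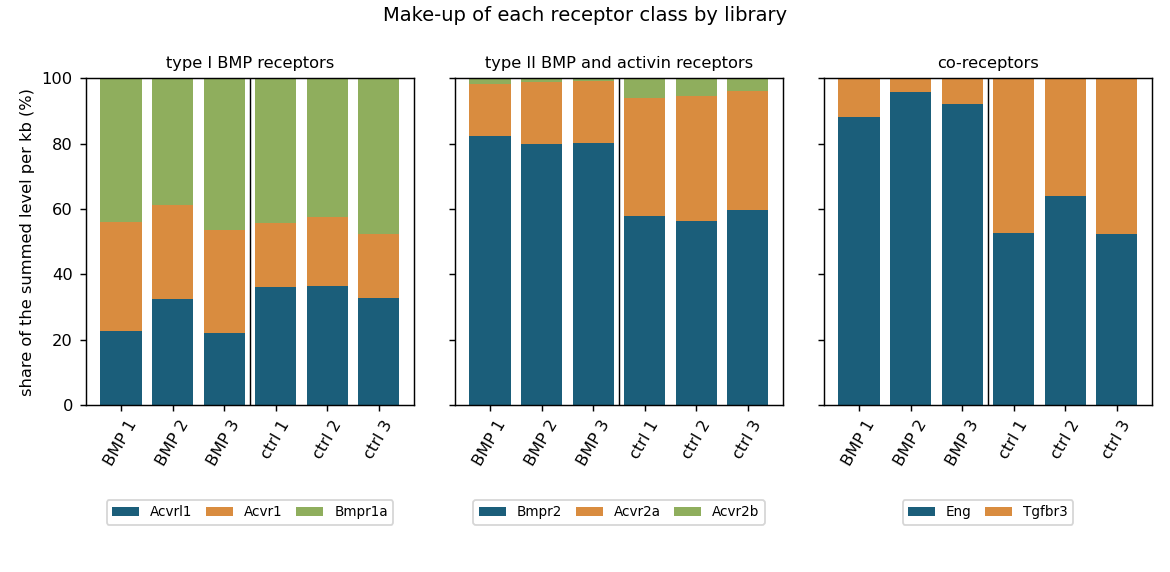
Share of the summed level per kb of exon (percent) held by each gene within its receptor class, by library, with the 3 BMP-stimulated libraries (BMP) left of the line and the 3 control libraries (ctrl) right of it. Bmpr2 holds 79.9% to 82.2% of its class after stimulation and 56.2% to 59.6% in controls, and Eng outweighs Tgfbr3 most in stimulated libraries.

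Other receptors and accessory proteins of the family were read from a list of 18 genes, of which 15 had a row. By limma 5 rose, 1 fell and 9 did not pass, with a median log2 change of 0.04. Of all genes, 8.61% rose and 4.75% fell. The remaining BMP type I receptor, Bmpr1b, was low but rose, with 454, 445 and 479 normalized counts in stimulated samples and 188, 239 and 219 in controls (1.10 ± 0.13, SE, adjusted p = 0.00355). Tmeff1, a transmembrane protein with follistatin-like domains, had 6668 to 8248 in stimulated and 1164 to 1618 in control samples (2.34 ± 0.15). Ror2, a Wnt5a receptor, rose by 0.55 ± 0.11. The pseudoreceptor gene Bambi (1.38 ± 0.29) and the RGM receptor gene Neo1 (0.51 ± 0.12) rose as well, and were named after their values were seen. Rgma, a glycolipid-anchored BMP co-receptor, fell to 175 to 210 in stimulated samples, against 1046 to 1833 in controls. Acvr1b, the activin type I receptor, was named likewise and averaged 849 ± 62 in stimulated samples and 823 ± 63.4 in controls (SD, n = 3 each, limma adjusted p = 0.824). With equal library totals 3 of the list rose and 2 fell, where 5.22% and 10.4% of all genes did, and without both replicate 2 libraries 3 rose and 3 fell, where 6.97% and 4.13% did.

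Genes for receptor turnover, docking and traffic numbered 26, of which 7 rose, 2 fell and 17 did not pass limma (median log2 change 0.12). Of all genes, 8.61% rose and 4.75% fell. With the replicate block 10 of the 26 rose and 5 fell, beside 14.9% and 12% of all genes. With equal library totals 5 rose and 5 fell, beside 5.22% and 10.4%. The inhibitory SMADs, which recruit ubiquitin ligases to the type I receptors, had the largest rises. Smad6 had 2387 to 4890 counts in stimulated and 181 to 290 in control samples. Smad7 had 4333, 6164 and 4916 counts in stimulated samples and 532, 707 and 541 in controls; both genes are also on the list of direct BMP response genes. Of ubiquitin ligase genes on the list, Smurf2 rose by 1.31 ± 0.10 (SE, 7553 to 9229 in stimulated and 3211 to 3649 in control samples) and Smurf1 by 0.72 ± 0.08. The ligase genes Trim33 (0.43 ± 0.10) and Wwp2 (0.34 ± 0.07) were also called upward, and were named after their values were seen. The falls, named after their values were seen, were those of the ligase gene Nedd4l and the endocytic adaptor gene Dab2 (2917 to 3371 in stimulated and 4751 to 5708 in control samples).

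Of the 6 SMAD genes whose proteins carry the receptor signal, Smad9 and Smad2 rose, Smad3 fell and 3 did not pass limma. Of all genes, 8.61% rose and 4.75% fell. Smad9, of the BMP branch, had 370, 659 and 521 counts in stimulated libraries and 148, 176 and 160 in control libraries. Smad3, of the TGF-beta and activin branch, had 1300, 1264 and 1217 in stimulated samples and 4979, 4129 and 5252 in controls. Without both replicate 2 libraries 1 of the 6 SMAD genes rose and 1 fell, beside 6.97% and 4.13% of all genes. Among ligands for these receptors, 18 of 21 had a row. By limma 4 rose and 1 fell (median log2 change -0.26), beside 8.61% and 4.75% of all genes. With the replicate block 4 ligand genes rose and 8 fell, beside 14.9% and 12% of all genes. Without both replicate 2 libraries 2 rose and 0 fell, beside 6.97% and 4.13%. Inhba, which encodes the activin A subunit, had 26202 to 26510 counts in stimulated and 3936 to 4436 in control samples. Tgfb1 rose by 0.93 ± 0.12 and Tgfb3 by 1.25 ± 0.19 (SE), and Inha fell by 0.68 (SE 0.15). Bmp10 was the other ligand called, at 4, 10 and 11 counts in stimulated samples and 1 in each control; it was named after its values were seen, and such low counts carry much counting error.

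Genes whose profile over the 6 libraries lay nearest to a receptor were found among 11521 genes with a mean of at least 100, by the root-mean-square difference of centred log2 values. For Bmpr2 they were Kctd11 (0.09), Pmepa1 (0.10), Cspg4 (0.11), Stk38l (0.11) and Skil (0.11), whose log2 changes ran from 1.53 to 1.77; Cspg4 is on the pericyte list. Those nearest to Tgfbr3 were Smad3 (0.13), Fam117a (0.13), Adamts5 (0.14), Selenbp1 (0.16) and Dbp (0.17). Eng lay nearest to Zfp469 (0.06), Siglecg (0.10), Bpgm (0.11), Prkg2 (0.12) and Trim47 (0.13). Acvrl1, with its higher value in stimulated replicate 2, lay nearest to Igfbp7 (0.05), Aars (0.05), Adamts2 (0.07), Chd2 (0.07) and Vars (0.07). These are descriptions of likeness in 6 libraries, with no test.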

How the data were processed

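Total RNA was made into stranded libraries, per the labels' protocols. The submitters' processing notes name STAR 2.6.1d, Trimmomatic 0.38, FastQC, DESeq2 1.18.1 and featureCounts 1.6.3, with mm10 as the mouse build beside hg38 and GRCh38. Which strand setting was used for counting is not given in the sources used here. The authors' deposited values are treated as a score: they skip or double whole numbers at regular steps, as counts scaled by 1 factor per library and rounded do. Counts merged by a factor under 1 cannot be recovered, so no count model was used. Of 21785 identifiers, 21747 matched GENCODE M21.

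Tests used limma 3.58.1 in R 4.3.3, trended by mean level, on log2(value + 1) with treatment as the only term. They covered 21743 genes averaging 1 or more, with Benjamini-Hochberg adjustment and a threshold of 0.05; 4 residual degrees of freedom remained. Log2 changes are on this scale and understate the change of low genes. The design named a count model first and this test for normalized values. The fit was tested on simulated data.

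Libraries with the same number deviated from their group means together (correlations 0.747, 0.741 and 0.218) across 13185 genes averaging 50 or more. All were over 0.1. The numbers pair libraries only in the replicate block and in the same-numbered differences, and the main fit left them out. No label explains them, and control replicate 3 correlated more with stimulated replicate 1 (0.287).

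Exons on the opposite strand cover at most 7.84% of the exonic bases of any receptor (Acvr2a). The receptors and all lists were chosen with earlier results of these data known. From each list up to 4 called genes with the smallest p were named, and for Bmpr2, Eng, Acvrl1 and Tgfbr3 the 5 genes nearest in profile, with unnamed models, pseudogenes and small RNAs passed over. Alternatives were other scalings, pseudocounts, filters and lengths, limma-voom, the replicate block and leaving out libraries.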

Additional observations from a re-analysis of the deposited data

How the results depend on the processing

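Bmpr2, Tgfbr1, Acvr1 and Tgfbr3 kept their direction and call under all 18 alternatives, with log2 changes of 1.505 to 1.77, 1.56 to 1.93, 1.00 to 1.21 and -2.27 to -2.01. The calls of Bmpr1a and Eng were lost under 10 and 6 of them, without a change of direction; the cause was not tested. Acvrl1 and Acvr2a, which were not called, had changes from -0.15 to 0.17 and from -0.02 to 0.34. With equal library totals the median of all genes was -0.20 and 1135 genes rose and 2265 fell, against 1873 and 1032 with the values as deposited; with upper-quartile factors 1420 rose and 1352 fell. The count of changed genes, 2905, was 5837 with the replicate block and 6958 with equal totals and the block, and leaving out 1 library gave 917 to 2384. With the values as deposited, the block changed the call of no receptor but Acvr2b; with equal totals it also brought calls for Bmpr1a, Eng and Tgfbr2 (adjusted p 0.00882, 0.00151 and 0.0343, against 0.108, 0.0609 and 0.0857 without it). By the longest transcript Bmpr2 held 85.2% of its class after stimulation and 65.1% in controls, and by coding length 87% and 69.2%; by coding length Acvrl1 held 29.1% in controls. Eng held 90.35% of the co-receptor sum in stimulated samples and 50.94% in controls by coding length. By that length it stood above Tgfbr3 in 1 control library. Counting error limits Acvr2b most, at 38 to 99 counts.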
